A study of Mus musculus with 10 samples.

Results

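The genes of the proteasome were compared in mouse TH2 cells from vitamin D-deficient mice and from mice on a regular diet. A gene was taken when its Ensembl identifier mapped to a protein-coding symbol that began with Psma, Psmb, Psmc, Psmd, Psme or Psmg followed by a digit. This gave 49 genes among the 49671 rows of the count table. They comprised 8 genes of the alpha rings of the core, 7 constitutive genes of its beta rings, 3 immunoproteasome genes, 9 genes of the base, 8 of the lid, 5 activators and 7 assembly chaperones. The remaining 2 were Psmb11, the beta subunit of the thymus-specific proteasome, and Psmc3ip, a meiotic recombination factor that carries a similar symbol and is no proteasome subunit. Of the 49, 48 had enough counts to be tested, and Psmb11 did not, with 0 counts in every regular library and at most 0.149 CPM (counts scaled to a fixed library total) in a deficient library; a count of 0 allows up to 3 counts in a library.

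All mice were C57BL/6 with the genotype given as WT, and second-generation offspring were used. The food of the regular mice contained vitamin D3 at 400 IU per kg. The deficient mice were bred and raised without UV light on food free of vitamin D metabolites, and the protocol describes the housing of the regular mice as otherwise the same. Naive CD4+ T cells were polarised in culture to TH2 cells, the helper subset known for type-2 cytokines and allergic responses, and RNA was taken on day 5. There were 3 regular and 7 deficient libraries, of which 2 regular and 5 deficient libraries were labelled batch 1 and 1 regular and 2 deficient libraries batch 2. Nothing in the labels said whether libraries came from separate mice or cultures, so p-values measure the spread between these samples only.

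Total counts were 5800698 to 6462146 in the regular libraries and 7029207 to 13433276 in the deficient ones. Of 11 T helper markers, all were tested, 7 were lower and 2 higher in the deficient libraries, and their summed level was 2691 to 2776 CPM in regular and 1651 to 1821 CPM in deficient libraries. Cd4 was present in every library, at 723 ± 13.8 CPM in regular (SD, n = 3) and 335 ± 30.9 CPM in deficient libraries (SD, n = 7). Of 13 markers of CD8 T and cytotoxic cells, 9 of the 12 tested were higher and 0 lower, with sums of 99.4 to 203 CPM against 690 to 1963 CPM, and Klra4 was at 0 in every regular library. Deficient libraries 5, 6 and 7 stood apart from deficient libraries 1 to 4 in this sum (1496 to 1963 against 690 to 1041 CPM), in that of 10 B cell markers (298 to 337 against 56.7 to 85.0 CPM) and in that of 11 dendritic cell markers (203 to 219 against 102 to 118 CPM). The regular libraries ranged from 16.2 to 107 CPM for B cell and from 64.6 to 84.3 CPM for dendritic markers. Of the tested B cell markers 2 of 9 were higher, of the dendritic markers 4 of 8, and of macrophage markers 1 of 3 was higher and 1 lower. All these marker counts stand beside 29.4% higher and 28.6% lower over all 13699 tested genes. Erythroid and stromal markers were too low to test, with sums of at most 1.92 CPM. The part of these other cells in the results below was not tested. Leaving out deficient libraries 5 to 7 does not test it. In the CD8 and cytotoxic sum, deficient libraries 1 to 4 still lay above every regular library. In bulk RNA, a change in the share of a cell type and a change in RNA per cell cannot be told apart.

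The proteasome is a barrel-shaped protease that degrades proteins tagged with ubiquitin. Its core is a stack of outer alpha rings, which form the gate, and inner beta rings, which carry the cutting sites, and a regulatory cap with an ATPase-bearing base and a lid unfolds substrates and removes their ubiquitin. In lymphocytes and in cells exposed to interferon-gamma, the catalytic beta subunits can be replaced by the immunoproteasome subunits Psmb8, Psmb9 and Psmb10, and activator rings can take the place of the cap. These forms are best known for producing peptides that MHC class I molecules present to CD8 T cells.

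Most proteasome genes were higher in the deficient libraries. In the edgeR fit over all genes with batch as a covariate, 36 of the 48 tested genes were higher, where 29.4% of all 13699 tested genes were higher, and 4 were lower, where 28.6% of all tested genes were lower (Benjamini-Hochberg adjusted p below 0.05). Among protein-coding genes alone these shares were 31.6% and 30%. In either direction 40 genes passed, where 58% of all tested genes did. The other 8 did not pass the threshold. The median log2 fold change, deficient minus regular, was 0.41 over the 48 genes and 0.015 over all tested genes. On CPM taken on plain column totals, 38 of the 49 genes were above every regular library in every deficient library, against 29.4% of all tested genes, and 3 were below, against 21.4%. A rise of 2-fold or more was found for 6 genes, where 10.3% of all tested genes rose that far: Psmb5, Psmc2, Psmc4, Psmc5, Psmb10 and Psme3. With the counts of annotated pseudogenes added to their parent genes, 5 of the 48 rose that far, Psmb5 not among them, where 10.3% of all tested genes did. No proteasome gene fell that far, against 8.71% of all tested genes. The summed level of all 49 genes was 5551, 5345 and 5588 CPM in the regular libraries and 6973 to 7716 CPM in the deficient ones, with a median of 7598. The groups did not overlap in this sum, and the mean went from 5495 ± 131 (SD, n = 3) to 7486 ± 258 CPM (SD, n = 7).

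**Figure D1:**
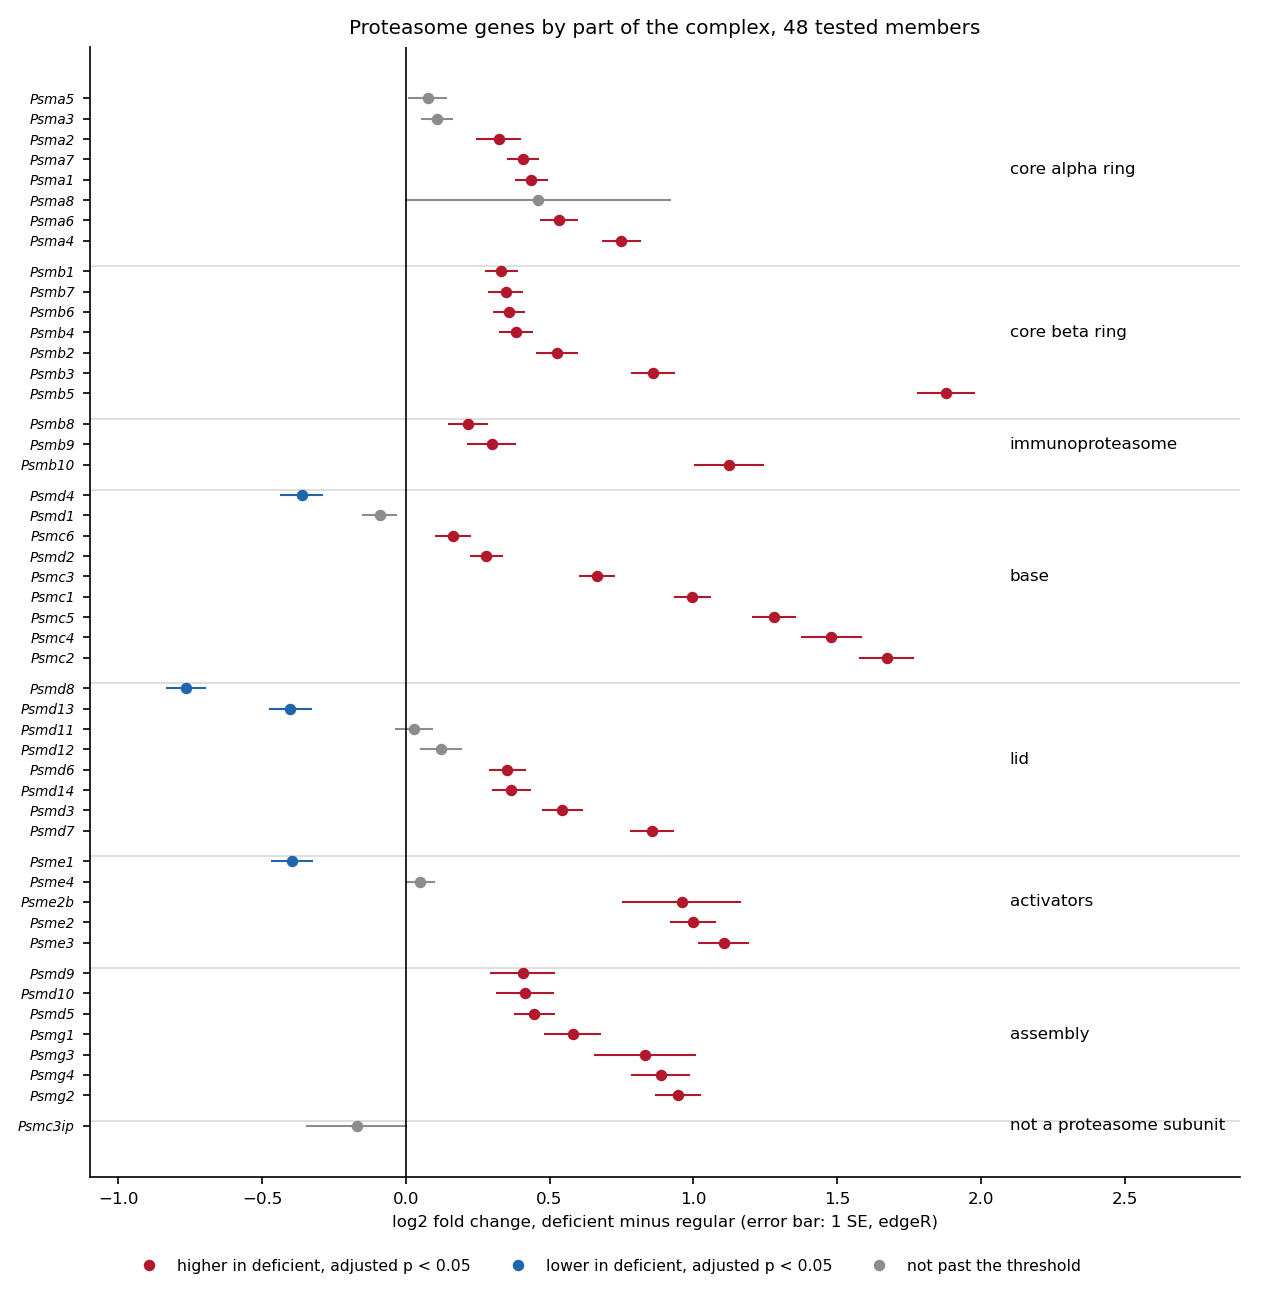
Log2 fold change (deficient minus regular, edgeR, with 1 SE as the error bar) of the 48 tested proteasome genes, grouped by their place in the complex. Points to the right of 0 were higher in deficient libraries; 36 red points were higher, 4 blue points (Psmd8, Psmd13, Psme1 and Psmd4) lower, and 8 grey points did not pass the threshold.

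The parts of the complex did not all move by the same amount. The median log2 fold change was 0.42 in the alpha rings, 0.38 in the constitutive beta rings, 0.30 for the immunoproteasome genes, 0.67 in the base, 0.24 in the lid, 0.96 for the activators and 0.58 for the assembly chaperones. The activator median is the value of Psme2b, whose count is uncertain, and without it the median of the other 4 activators was 0.52. These medians are descriptions of 3 to 9 genes each, and the differences between them were not tested. In summed CPM, 6 of these 7 groups of genes were higher in every deficient library than in any regular one. The lid sum, at 940 ± 14.8 CPM in regular libraries (SD, n = 3) and 946 ± 41.8 CPM in deficient ones (SD, n = 7), overlapped between the diets. Psmd8 alone made up 369 ± 15.0 CPM of it in regular and 231 ± 19.5 CPM in deficient libraries. The flat sum therefore does not mean unchanged genes, since 4 of the 8 lid genes were higher and 2 lower.

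**Figure D2:**
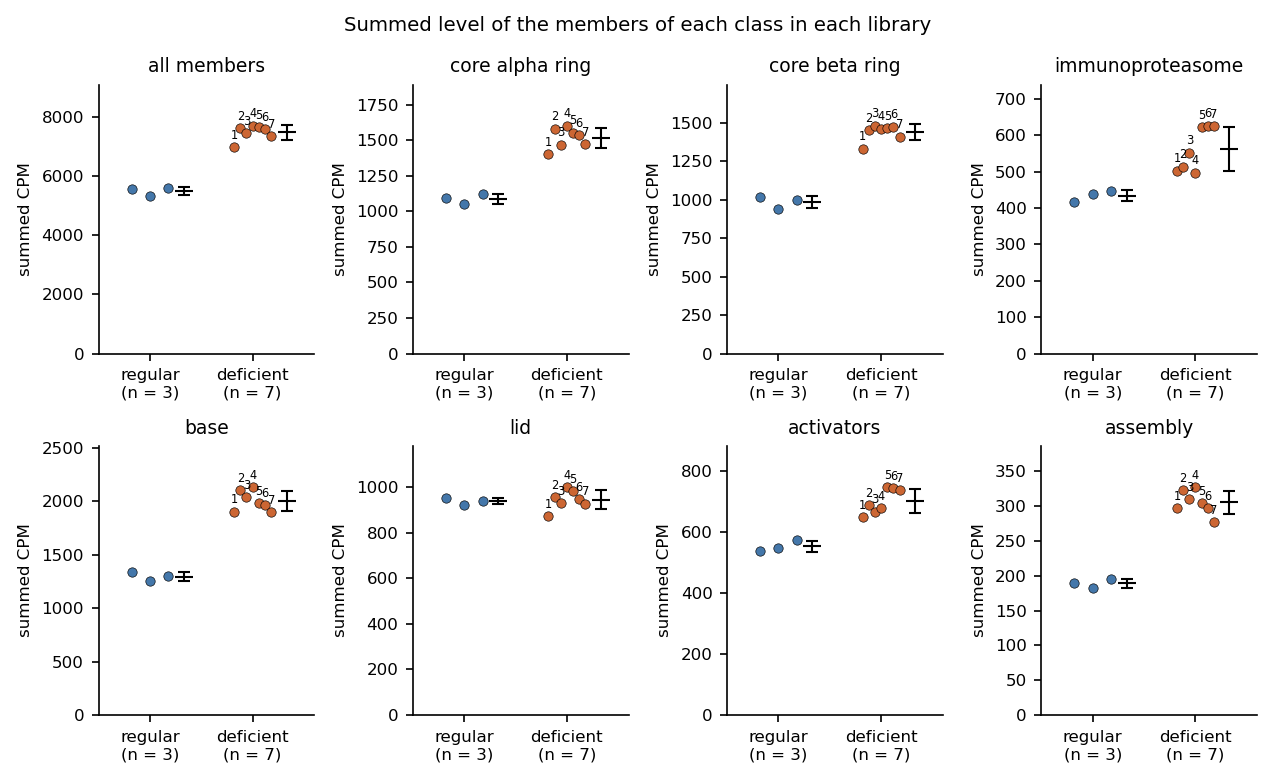
Summed CPM of all 49 genes and of 7 classes in each library (points, deficient libraries numbered 1 to 7), with the mean and SD of each diet beside them. The sums of the 2 diets are separate in every panel except the lid, where regular libraries lie at 924 to 953 CPM and deficient ones at 874 to 1000 CPM.

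In the alpha rings, 5 of 8 genes were higher (Psma1, Psma2, Psma4, Psma6 and Psma7) and 0 lower. Psma4 (ENSMUSG00000032301, GRCm38 chr9:54950790-54958030, plus strand) had the largest difference of the ring. Its level was 147, 146 and 156 CPM in the regular libraries and had a lowest, median and highest value of 240, 266 and 297 CPM in the deficient ones. No deficient library was as low as a regular one, and the log2 fold change was 0.75 (SE 0.07, edgeR adjusted p = 2.32e-07). The other 4 had log2 fold changes of 0.32 (Psma2) to 0.53 (Psma6). Psma3 had a log2 fold change of 0.11 (95% interval -0.02 to 0.24, edgeR adjusted p = 0.110) and Psma5 of 0.08 (-0.09 to 0.24, edgeR adjusted p = 0.362), although every deficient library exceeded every regular one in CPM for Psma3. Fold changes were scaled by the trimmed mean of M-values (TMM) and CPM by column totals, and Psma3 passed under the latter scaling (0.20, adjusted p = 0.0123). Psma8, the testis variant of an alpha subunit, was at 0.860 ± 0.379 (SD, n = 3) and 1.25 ± 0.442 CPM (SD, n = 7), and its log2 fold change of 0.46 had a 95% interval from -0.63 to 1.56, so a difference was not detectable at this depth.

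All 7 constitutive beta genes were higher. Psmb1 to Psmb4, which with Psmb5 to Psmb7 complete the beta rings and carry no cutting site themselves, had log2 fold changes of 0.33, 0.53, 0.86 and 0.38. The catalytic subunits Psmb6 and Psmb7, which cut after acidic and after basic residues, rose by 0.36 and 0.35. Psmb5, which cuts after hydrophobic residues and is the main target of proteasome inhibitor drugs, showed the largest log2 fold change of the 48 genes in its own row, and ranked 10 of 48 once the counts of a pseudogene were added.

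Psmb5 (ENSMUSG00000022193, GRCm38 chr14:54614119-54618022, minus strand) was at 16.4, 16.0 and 13.6 CPM in the regular libraries and at 53.1, 61.9 and 65.7 CPM (lowest, median, highest) in the deficient ones. The groups were far apart, with a log2 fold change of 1.88 (SE 0.10, edgeR adjusted p = 8.64e-10). Its annotated transcripts share 54.1% of their 50-base stretches with other genes, chiefly with the processed pseudogene Gm3375, an intronless copy. Gm3375 moved the other way, from 14.5, 13.6 and 17.2 CPM in the regular libraries to 0.235 to 0.910 CPM in the deficient ones. With the counts of both rows added, the level was 30.9, 29.7 and 30.8 CPM in the regular and 53.4 to 66.2 CPM in the deficient libraries. The diets still did not overlap, and the log2 fold change was 0.91 (SE 0.08, edgeR adjusted p = 2.25e-07), less than the 1.88 of the Psmb5 row alone by more than 1.5 times. The sources used here do not say how reads that match both rows were counted, so the size of the Psmb5 difference is uncertain. These values need not bound it.

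**Figure D3:**
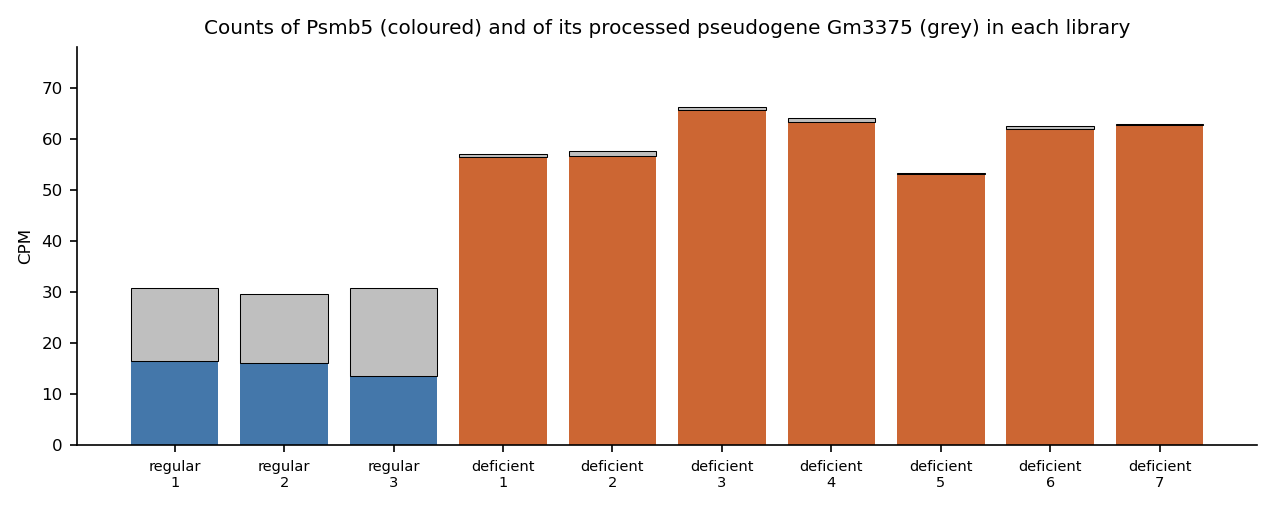
CPM of Psmb5 (coloured bars, blue for regular and orange for deficient) with the CPM of the processed pseudogene Gm3375 stacked on top in grey, for each of the 10 libraries. In regular libraries the grey part is about as tall as the Psmb5 part (15.1 against 15.3 CPM on average), and in deficient libraries it is at most 0.910 CPM.

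Annotated pseudogenes with a row in the table that share at least 50 different 50-base stretches with a tested gene were found for 9 of the genes, 12 pseudogenes in all. Adding their counts left 36 genes higher and 4 lower and changed no other gene by as much as Psmb5. For Psma3 the pseudogene Gm13835 fell from 6.52 ± 1.02 CPM (SD, n = 3) to 2.51 ± 0.399 CPM (SD, n = 7), and the log2 fold change with the pseudogenes added was 0.07. A group of 19 genes, among them Psmb2, Psmb4, Psmb10, Psmc4, Psmc5, Psme3 and Psmd8, shares no such stretch with another gene.

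Levels per length are given in RPKM, which is CPM per kilobase of the union of a gene's annotated exons. That union was 4595 bases for Psmb1, whose longest transcript has 1970 bases. For Psmb5 both lengths were 899 bases. The order and range across genes, here and below, therefore depend on the annotation. Among the 14 constitutive core genes (Psma1 to Psma7 and Psmb1 to Psmb7) the lowest RPKM in the regular libraries was that of Psmb5 at 17.1 ± 1.67 (SD, n = 3) and the highest that of Psmb4 at 96.0 ± 1.46, a range of 5.62-fold. In the deficient libraries the range was 2.69-fold, from Psmb7 at 51.8 ± 3.21 RPKM to Psma6 at 139 ± 8.41 RPKM (SD, n = 7). Psmb5 stood at 66.7 ± 5.11 RPKM there, inside the range of the other core genes. With the counts of annotated pseudogenes added, Gm3375 among them, Psmb5 averaged 33.9 RPKM in the regular libraries and the range there was 2.83-fold, while that in the deficient libraries was again 2.69-fold. The wider range in the regular libraries therefore rests on the Psmb5 row alone.

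All 3 immunoproteasome genes were higher, but by unequal amounts. Psmb8 (ENSMUSG00000024338, GRCm38 chr17:34197721-34201454, plus strand), the replacement for Psmb5, was at 313, 332 and 339 CPM in the regular and at 359, 396 and 450 CPM (lowest, median, highest) in the deficient libraries. Psmb9 (ENSMUSG00000096727, chr17:34181987-34187764, minus strand), the replacement for Psmb6, was at 81.9, 83.8 and 85.7 CPM in the regular and at 92.1, 102 and 127 CPM in the deficient libraries. Psmb10 (ENSMUSG00000031897, chr8:105935735-105938444, minus strand), the replacement for Psmb7, was at 22.6, 22.1 and 21.5 CPM in the regular and at 40.2, 50.7 and 62.4 CPM in the deficient libraries. The diets did not overlap for any of the 3, and deficient libraries 5, 6 and 7 were the highest of the deficient libraries for Psmb8 and Psmb9.

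The log2 fold change was 0.22 (SE 0.07, edgeR adjusted p = 0.0154) for Psmb8, 0.30 (SE 0.09, edgeR adjusted p = 0.00764) for Psmb9 and 1.12 (SE 0.12, edgeR adjusted p = 1.54e-06) for Psmb10. Without deficient libraries 5 to 7, the libraries with the most CD8, B cell and dendritic marker RNA, Psmb8 (0.12, edgeR adjusted p = 0.154) and Psmb9 (0.14, edgeR adjusted p = 0.134) no longer passed, while Psmb10 did (0.93, edgeR adjusted p = 2.53e-06). Both also missed the threshold in batch 1 alone and without regular library 3, at 0.18 and 0.21 for Psmb8 and Psmb9 in each. Psmb10 was higher in each batch, by 0.97 in batch 1 and 1.46 in batch 2. Psmb9 overlaps Tap1 on the opposite strand by 212 bases, and the strand setting of the counting is not given in the sources used here. The antisense genes that overlap Psmb8 and Psmb10 were at or below 1.02 CPM in every library.

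**Figure D4:**
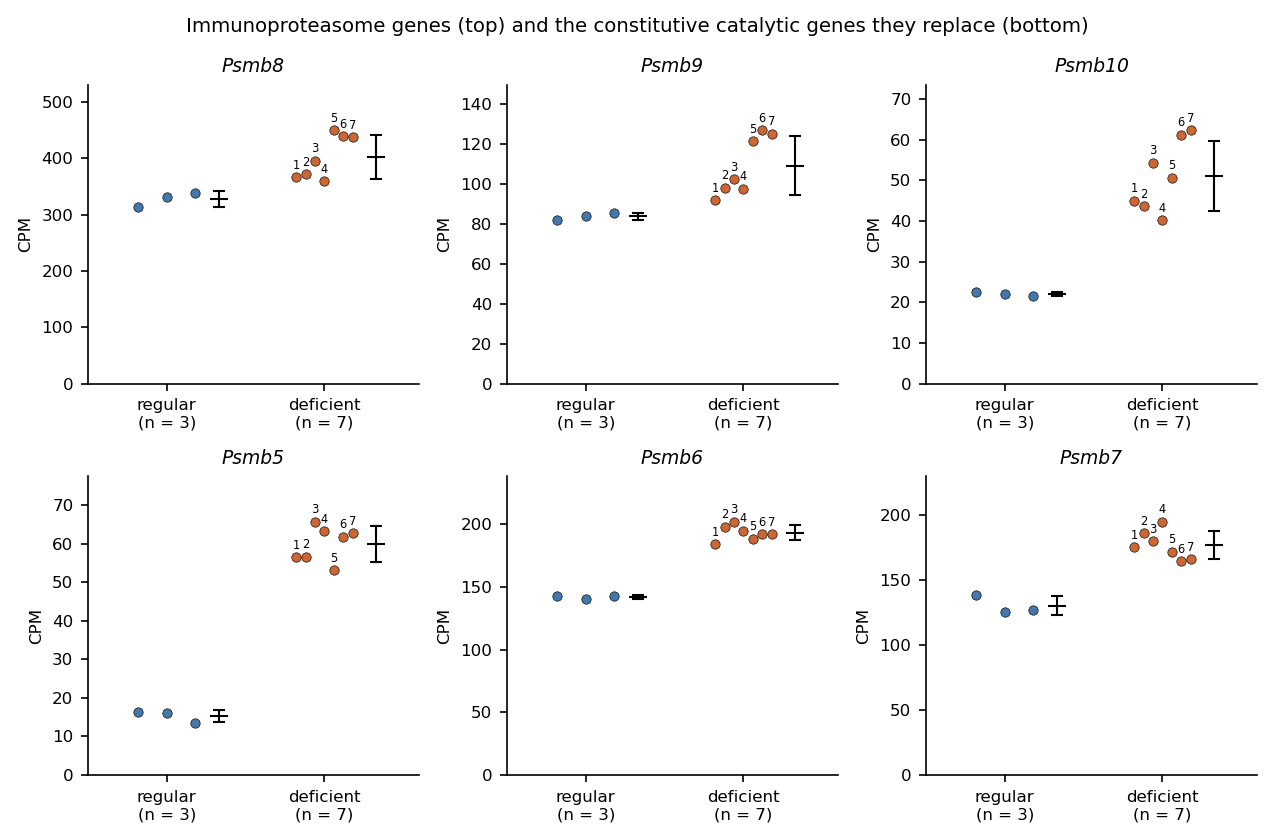
CPM of the immunoproteasome genes Psmb8, Psmb9 and Psmb10 (top) and of the constitutive genes they replace, Psmb5, Psmb6 and Psmb7 (bottom), in each library, with the mean and SD of each diet; deficient libraries carry their number. All deficient points lie above all regular points in each panel, and libraries 5 to 7 form the upper group for Psmb8 and Psmb9 but not for Psmb5, Psmb6 or Psmb7.

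The constitutive counterparts were measured in the same libraries. Psmb6 (chr11:70525367-70527858, plus strand) was at 143, 140 and 143 CPM in the regular and at 184, 192 and 202 CPM (lowest, median, highest) in the deficient libraries. Psmb7 (chr2:38588036-38644087, minus strand) was at 139, 125 and 127 CPM in the regular and at 165, 175 and 195 CPM in the deficient libraries. For both, every deficient library was above every regular one, with edgeR adjusted p of 5.38e-05 and 0.000167.

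The ratio of counts of an immunoproteasome gene to its counterpart does not depend on the scaling of libraries, and 5 ratios, including activators, were compared by two-sided exact permutation over all 120 assignments of the diets to libraries, which cannot give a p below 0.00833. Psmb8/Psmb5 was 19.1, 20.7 and 24.9 in the regular and 5.67, 6.56 and 8.48 (lowest, median, highest) in the deficient libraries. Every deficient library was lower, by 1.68 on the log2 scale (exact permutation p = 0.00833, 0.0139 adjusted over the 5 ratios). With pseudogene counts added to Psmb5, the difference was -0.70 on that scale. Psmb10/Psmb7 was 0.163, 0.176 and 0.169 in the regular and 0.206, 0.295 and 0.375 in the deficient libraries, higher in every deficient library by 0.75 on the log2 scale (exact permutation p = 0.00833, adjusted 0.0139). The 2 ratios therefore moved in opposite directions.

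Psmb9/Psmb6 was 0.573, 0.598 and 0.601 in the regular libraries and 0.496 to 0.662 in the deficient ones, and its difference of -0.07 did not pass (exact permutation p = 0.575, adjusted 0.575). The deficient libraries lay on both sides of the regular ones. Deficient libraries 1 to 4 were at 0.496 to 0.507, below all regular libraries, and 5 to 7 at 0.644 to 0.662, above them. Without libraries 5 to 7 the log2 difference was -0.24 (exact permutation, adjusted p = 0.0476). The libraries left out were the ones above the regular libraries, so this p is no separate support. For Psmb10/Psmb7 the log2 difference without them was 0.55 (exact permutation, adjusted p = 0.0714). Psmb10/Psmb7 in deficient libraries 1 to 4, at 0.206 to 0.301, was still above every regular library. Within batches, the log2 differences for Psmb8/Psmb5 were -1.60 and -1.82 in batch 1 and batch 2, for Psmb9/Psmb6 -0.15 and 0.13, and for Psmb10/Psmb7 0.60 and 1.14.

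The promoters of Psmb5 and Psmb8 are shown because these genes encode the constitutive and the inducible form of the same cutting subunit. Each window runs from 250 bases before to 50 bases after the RefSeq start (GRCm38.p6), 5′ to 3′ on the gene's strand. Psmb5 lies at chr14:54617946-54618245 on the minus strand and Psmb8 at chr17:34197945-34198244 on the plus strand. Capitals mark matches to TTCNNNGAA (the gamma-activated element bound by STAT factors) and to TGANNNNGC (a loose form of the antioxidant-type element bound by NRF factors).
Psmb5: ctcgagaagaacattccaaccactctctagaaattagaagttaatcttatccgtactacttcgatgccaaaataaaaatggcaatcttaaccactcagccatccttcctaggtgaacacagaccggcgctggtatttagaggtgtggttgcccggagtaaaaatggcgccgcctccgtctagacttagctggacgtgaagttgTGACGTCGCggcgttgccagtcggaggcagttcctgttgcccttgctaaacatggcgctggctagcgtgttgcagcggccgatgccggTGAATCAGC
Psmb8: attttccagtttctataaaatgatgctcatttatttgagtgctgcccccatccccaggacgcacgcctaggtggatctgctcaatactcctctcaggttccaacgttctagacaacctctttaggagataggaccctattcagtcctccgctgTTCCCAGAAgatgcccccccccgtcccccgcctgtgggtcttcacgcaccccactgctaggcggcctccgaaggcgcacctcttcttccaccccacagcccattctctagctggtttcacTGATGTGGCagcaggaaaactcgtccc
Psmb8 holds TTCNNNGAA with its first base 97 bases before the start, and Psmb5 holds TGANNNNGC 47 bases before it. Psmb8 also has a TGANNNNGC match after its start, as has Psmb5. The RefSeq start of Psmb8 is 474 bases inside the GENCODE start of the gene, and that of Psmb5 27 bases inside.

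The base joins the core to the lid, and its ATPases Psmc1 to Psmc6 form the ring that unfolds substrates and opens the gate of the core. All 6 ATPase genes were higher, with a median log2 fold change of 1.14. Psmc2 (ENSMUSG00000028932, GRCm38 chr5:21785283-21803787, plus strand) was at 114, 99.2 and 102 CPM in the regular and at 310, 359 and 426 CPM (lowest, median, highest) in the deficient libraries. The lowest deficient library was well above the highest regular one, and the log2 fold change was 1.67 (SE 0.10, edgeR adjusted p = 3.91e-09). Psmc4 rose by 1.48, Psmc5 by 1.28, Psmc1 by 1.00 and Psmc3 by 0.67 on the log2 scale.

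Psmc6 was the exception in size, at 0.16 (SE 0.06, edgeR adjusted p = 0.0391). It no longer passed in batch 1 alone, in batch 2 alone, with counts thinned to equal depth, or without regular library 2 or 3 or deficient library 2, 4 or 6, where its log2 fold change ran from 0.09 to 0.20 over these settings. Per length, the ATPases ranged from 9.08 ± 0.964 RPKM (Psmc4) to 88.9 ± 6.29 RPKM (Psmc6) in the regular libraries (SD, n = 3), or 9.79-fold. In the deficient libraries they ranged from 26.8 ± 2.21 RPKM (Psmc4) to 135 ± 7.73 RPKM (Psmc1), or 5.03-fold (SD, n = 7).

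The remaining 3 base genes encode no ATPase. Psmd2, a large scaffold that docks shuttle proteins, was higher (0.28, SE 0.06, edgeR adjusted p = 0.000675). Psmd1, the other large scaffold, had a log2 fold change of -0.09 (95% interval -0.23 to 0.05, edgeR adjusted p = 0.209). Psmd4, a receptor for ubiquitin chains, was at 187, 178 and 182 CPM in the regular and at 131, 150 and 173 CPM (lowest, median, highest) in the deficient libraries. Every deficient library was below every regular one, and the log2 fold change of Psmd4 was -0.36 (SE 0.08, edgeR adjusted p = 0.000778).

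The lid cuts off the ubiquitin of substrates through Psmd14, a metalloprotease paired with Psmd7. Of its 8 genes, 4 were higher and 2 lower. Psmd7 (ENSMUSG00000039067, GRCm38 chr8:107580381-107588464, minus strand) was at 36.2, 39.0 and 44.9 CPM in the regular and at 71.8, 77.3 and 81.6 CPM (lowest, median, highest) in the deficient libraries. The diets did not overlap, and the log2 fold change was 0.86 (SE 0.08, edgeR adjusted p = 1.83e-07). Psmd14 rose by 0.37, and the structural subunits Psmd3 and Psmd6 by 0.54 and 0.35 on the log2 scale.

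Psmd8 (ENSMUSG00000030591, GRCm38 chr7:29174188-29180701, minus strand), a structural lid subunit, moved the other way. It was at 382, 373 and 353 CPM in the regular and at 197, 229 and 256 CPM (lowest, median, highest) in the deficient libraries. Every deficient library was below every regular one, with a log2 fold change of -0.76 (SE 0.07, edgeR adjusted p = 2.57e-07), and the gene was lower in each batch (-0.84 and -0.59) and without deficient libraries 5 to 7 (-0.89). Psmd8 had the highest level per length of the lid genes under both diets, at 121 ± 4.92 RPKM (SD, n = 3) and 75.5 ± 6.38 RPKM (SD, n = 7), and Psmd3 the lowest at 8.69 ± 0.595 and 13.4 ± 0.752 RPKM. The range within the lid was 13.9-fold in regular and 5.63-fold in deficient libraries.

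Psmd13, another structural lid subunit, was at 97.2, 93.5 and 93.0 CPM in the regular and at 63.1, 75.2 and 82.6 CPM (lowest, median, highest) in the deficient libraries. Its groups were also separate, and its log2 fold change was -0.40 (SE 0.08, edgeR adjusted p = 0.000334). It overlaps Sirt3 on the opposite strand, which was at 14.5 CPM on average in regular and 19.2 CPM in deficient libraries. Psmd11 (0.03, 95% interval -0.13 to 0.19) and Psmd12 (0.12, -0.05 to 0.30) did not pass (edgeR adjusted p = 0.737 and 0.171). Psmd12 passed on column totals (0.21, edgeR adjusted p = 0.0342), a scaling that moved the median of all tested genes to 0.10.

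The promoter window of Psmd8 is printed because this gene fell most among the 48. It lies at chr7:29180624-29180923 on the minus strand (RefSeq, GRCm38.p6), and its capitals mark a match to TGANNNNGC, read here on the opposite strand, after the start.
Psmd8: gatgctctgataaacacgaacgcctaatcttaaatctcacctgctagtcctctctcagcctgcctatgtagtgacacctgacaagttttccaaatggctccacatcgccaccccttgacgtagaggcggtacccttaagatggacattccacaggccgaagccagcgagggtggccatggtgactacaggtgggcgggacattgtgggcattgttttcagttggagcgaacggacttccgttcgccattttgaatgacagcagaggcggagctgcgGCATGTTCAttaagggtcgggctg
The window holds none of the other motifs searched.

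Activators open the gate of the core without the cap. Psme1 and Psme2 form a mixed ring that interferon-gamma induces, Psme3 forms a nuclear ring of its own kind, and Psme4 is a large single-chain activator. Of the 5 activator genes, 3 were higher, 1 was lower and 1 did not pass, and the partners Psme1 and Psme2 changed in opposite directions.

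Psme1 (ENSMUSG00000022216, GRCm38 chr14:55578123-55581529, plus strand) was at 159, 173 and 191 CPM in the regular and at 121, 130 and 162 CPM (lowest, median, highest) in the deficient libraries. The diets overlapped in CPM, since deficient library 6 exceeded regular library 1, and deficient libraries 5 to 7 (155 to 162 CPM) were above deficient libraries 1 to 4 (121 to 130 CPM). The log2 fold change was -0.40 (SE 0.07, edgeR adjusted p = 0.000305) with all libraries and -0.49 (edgeR adjusted p = 1.07e-05) without deficient libraries 5 to 7.

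Psme2 (ENSMUSG00000079197, chr14:55587441-55591113, minus strand) was at 118, 111 and 119 CPM in the regular and at 209, 240 and 275 CPM (lowest, median, highest) in the deficient libraries. No deficient library came near the regular ones, and the log2 fold change was 1.00 (SE 0.08, edgeR adjusted p = 6.06e-08), or 0.90 without deficient libraries 5 to 7. Psme2 shares 28.3% of its 50-base stretches with other genes. The copy Psme2b, on chromosome 11, shares 69.3% of its own and rose from 4.04 ± 1.12 CPM (SD, n = 3) to 8.31 ± 1.24 CPM (SD, n = 7), which is uncertain because reads of Psme2 may be counted there (log2 fold change 0.96, SE 0.21, edgeR adjusted p = 0.00101).

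Psme3 (ENSMUSG00000078652, chr11:101316213-101323537, plus strand) was at 19.1, 20.8 and 22.0 CPM in the regular and at 42.8, 47.98 and 51.5 CPM (lowest, median, highest) in the deficient libraries. Its values were tight within each diet and far apart between them, with a log2 fold change of 1.11 (SE 0.09, edgeR adjusted p = 5.77e-08). Psme4 (ENSMUSG00000040850, chr11:30771726-30880361, plus strand) was at 238, 241 and 239 CPM in the regular and at 243, 263 and 286 CPM in the deficient libraries. Its CPM did not overlap between diets, but with TMM scaling its log2 fold change was 0.05 (95% interval -0.07 to 0.17, edgeR adjusted p = 0.439).

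**Figure D5:**
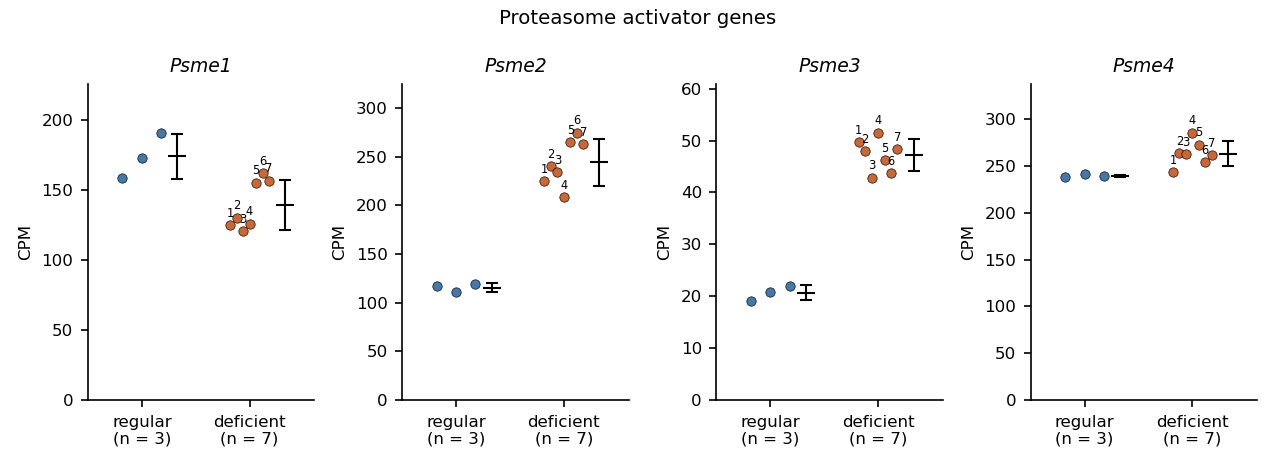
CPM of the activator genes Psme1, Psme2, Psme3 and Psme4 in each library, with the mean and SD of each diet; deficient libraries carry their number. Psme1 is lower in deficient libraries (174 against 139 CPM on average) with some overlap, Psme2 (116 against 244 CPM) and Psme3 (20.7 against 47.2 CPM) are higher without overlap, and Psme4 differs little (239 against 263 CPM).

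The ratio Psme1/Psme3 was 8.30, 8.28 and 8.69 in the regular and 2.44, 2.82 and 3.71 (lowest, median, highest) in the deficient libraries, a log2 difference of -1.52 with no overlap (exact permutation p = 0.00833, adjusted 0.0139). The ratio Psme2/Psme3 was 6.14, 5.31 and 5.41 in the regular and 4.05, 5.44 and 6.29 in the deficient libraries. These overlapped, and the log2 difference of -0.12 did not pass (exact permutation p = 0.433, adjusted 0.542). Within batch 1 and batch 2, the log2 differences were -1.59 and -1.33 for Psme1/Psme3 and -0.22 and 0.11 for Psme2/Psme3.

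The promoters of Psme1 and Psme2 are shown because the products of these genes form a shared ring while their RNAs moved apart. The windows (RefSeq, GRCm38.p6) are chr14:55578244-55578543 on the plus strand for Psme1 and chr14:55591052-55591351 on the minus strand for Psme2. Capitals mark the core of the interferon-stimulated element (GAAA, any 2 bases, GAAA) on the opposite strand in Psme1 and TGANNNNGC in Psme2, both after the start.
Psme1: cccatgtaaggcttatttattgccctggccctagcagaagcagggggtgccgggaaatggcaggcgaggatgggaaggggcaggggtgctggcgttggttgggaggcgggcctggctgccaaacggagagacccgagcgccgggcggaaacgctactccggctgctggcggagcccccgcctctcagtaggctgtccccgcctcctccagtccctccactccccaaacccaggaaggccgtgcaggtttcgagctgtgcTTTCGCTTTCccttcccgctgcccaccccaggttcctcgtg
Psme2: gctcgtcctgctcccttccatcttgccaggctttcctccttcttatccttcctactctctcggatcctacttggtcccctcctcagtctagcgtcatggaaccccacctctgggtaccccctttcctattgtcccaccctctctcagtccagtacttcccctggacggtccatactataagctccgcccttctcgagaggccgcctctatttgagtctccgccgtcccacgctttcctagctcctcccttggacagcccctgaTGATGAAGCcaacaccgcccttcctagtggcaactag
The RefSeq start is 371 bases inside the GENCODE start of Psme1 and 12 bases inside that of Psme2, which has a further RefSeq start 92 bases inside.

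Over all genes of the list, RefSeq windows were found for 41 of the 49. A gene with more than 1 window, such as Psma6, Psmc2 or Psme2, was counted once, if any of its windows held the match. On either strand, the interferon-stimulated core was in 5 of the 41 genes (Psmb3, Psmd4, Psmd9, Psme1 and Psmg4), or 12.2%, against 3.99% of the 27025 genes with a window. TTCNNNGAA was in 3 (Psmb8, Psmd2 and Psmg1), or 7.32% against 9.55%, TGANNNNGC in 24, or 58.5% against 45.05%, and CCAAT, the box bound by NF-Y, in 15, or 36.6% against 41.1%. Of the 5 genes with that core, Psmb3, Psmd9 and Psmg4 were higher and Psmd4 and Psme1 lower. The RefSeq start of Psmd9 is 58777 bases inside the GENCODE start of the gene. A match says only that these letters stand in the window.

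Assembly chaperones bind growing particles and leave the finished one. All 7 were higher. Psmg1 to Psmg4, which act as pairs in building the alpha ring of the core, had log2 fold changes of 0.58, 0.95, 0.83 and 0.89. Psmg2 (ENSMUSG00000024537, GRCm38 chr18:67641599-67654162, plus strand) was at 29.0, 30.1 and 31.9 CPM in the regular and at 55.1, 65.5 and 68.6 CPM (lowest, median, highest) in the deficient libraries. The groups were separate, and its edgeR adjusted p was 1.16e-07 (SE 0.08).

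The base chaperones Psmd5, Psmd9 and Psmd10 were higher by 0.45, 0.41 and 0.41 on the log2 scale. Psmd9 and Psmd10 no longer passed in batch 2 alone, which holds 1 regular library (0.45 and 0.33, edgeR adjusted p = 0.0772 and 0.0774). Psmc3ip was at 9.60 ± 1.08 CPM (SD, n = 3) and 9.23 ± 2.25 CPM (SD, n = 7), a log2 fold change of -0.17 (95% interval -0.59 to 0.24, edgeR adjusted p = 0.425).

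A difference between the labelled batches was not detected for the proteasome genes. In the same edgeR fit, 0 of the 48 had a batch term past the adjusted threshold, as had 0 of all 13699 genes, and 4 had an unadjusted p below 0.05, against 7.58% of all genes. The product of diet and batch passed for 0 of the 48 and 0 of all genes, and 2 of the 48 had an unadjusted p below 0.05, Psmb10 and Psme2b, against 4.14% of all genes. Replicates were close for these genes. The median coefficient of variation of CPM was 5.39% in regular and 7.64% in deficient libraries over the 48 genes, against 10.2% and 13.1% over all tested genes. The 2 sets of genes were not matched for level, on which this spread depends.

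Within the list, genes with a shorter summed exon length tended to have higher log2 fold changes. Spearman's rho between the summed exon length and the log2 fold change was -0.46 over the 48 genes, where it was -0.03 over the 13673 tested genes with a length, and between GC content and the log2 fold change it was 0.16 and -0.04. These are correlations across genes of the same 10 libraries, and genes are not independent replicates. The median exon length was 2488.5 bases in the 36 higher genes, 2932.5 in the 4 lower and 3271.5 in the 8 others.

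Ubb and Rps27a, which supply the ubiquitin tag, did not pass the threshold, with log2 fold changes of 0.09 (SE 0.06, edgeR adjusted p = 0.194) and 0.02 (SE 0.05, edgeR adjusted p = 0.749).

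Of 21 partners of the proteasome outside the symbol rule, such as shuttles and deubiquitinases, 8 were higher and 7 lower, with a median log2 fold change of 0.06. Nploc4, a cofactor that hands ubiquitinated proteins to the segregase VCP, was at 97.1 ± 3.70 CPM (SD, n = 3) and 141 ± 4.79 CPM (SD, n = 7), with a log2 fold change of 0.45. The shuttle gene Rad23b was higher (0.50), and Uchl5, a deubiquitinase that docks on the cap, was lower (-0.52).

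Of 16 transcription factors known for driving proteasome or immunoproteasome genes, 9 were higher and 5 lower, with a median of 0.39. Nlrc5, the transactivator of MHC class I and of the immunoproteasome genes, was at 21.5, 26.0 and 30.0 CPM in the regular libraries and averaged 147 ± 20.3 CPM in the deficient ones (SD, n = 7), with a log2 fold change of 2.44 (SE 0.10). The stress factor Nfe2l2 (0.60), its partner Mafk (0.80) and the CCAAT-binding factor Nfyb (0.60) were higher. Nfe2l1, the factor that restores proteasome genes when the protease is blocked, was lower (-0.38, SE 0.07, edgeR adjusted p = 0.000434), and Irf1 was higher (1.21, SE 0.32, edgeR adjusted p = 0.0119); these 2 are named after their values were seen. Irf1 was at 71.9 to 106 CPM in deficient libraries 1 to 4 and at 171 to 184 CPM in libraries 5 to 7.

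Genes that load peptides on MHC class I, the step that follows the immunoproteasome, were higher for 7 of 11 and lower for 2, with a median of 0.75. H2-K1, a class I heavy chain, was at 308 ± 15.7 CPM (SD, n = 3) and 1792 ± 141 CPM (SD, n = 7), with a log2 fold change of 2.46, and H2-D1, another, rose by 1.83. Tap1, a subunit of the peptide transporter, rose by 1.14 and the editor Tapbpl by 0.99. Of 22 tested interferon-gamma response genes, 13 were higher and 3 lower, with a median of 0.80. The summed level of the 24 listed genes was 2708 to 2838 CPM in the regular libraries, 2313 to 2494 CPM in deficient libraries 1 to 4 and 2906 to 3177 CPM in deficient libraries 5 to 7, so the deficient libraries lay on both sides of the regular ones. Without deficient libraries 5 to 7, 11 of 21 tested genes were higher and 4 lower, with a median of 0.44. The 3 lower ones encode the receptor chain Ifngr2 (-1.06) and the kinases Jak1 (-0.48) and Jak2 (-0.75), and Cd274, a checkpoint ligand, was higher (0.68). Without those libraries, 7 of the 11 class I genes were again higher and 2 lower, and 9 of the 16 transcription factors were higher and 2 lower. All these lists were read against the same 29.4% of higher and 28.6% of lower genes.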

How the data were processed

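RNA of 10 TH2 libraries was measured. The authors deposited raw read counts per Ensembl gene, for which the submitters' processing notes name GRCm38, STAR 2.7.10a and HTSeq 0.13.5. Annotation release and strand setting: not given in the sources used here. Stranded total RNA kits also capture unspliced RNA, and reads that fit near-identical genes may be lost or split. Of 49671 identifiers, 259 did not match GENCODE M21 and held 0.0226% of counts.

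Groups came from the treatment label and batches from the batch label. Replicate numbers follow accession order. Counts were fitted in R 4.3.3 with edgeR 4.0.16 (filterByExpr, minimum count 10, 13699 genes; TMM; robust quasi-likelihood with diet and batch), with Benjamini-Hochberg adjusted p below 0.05 as the threshold. Log2 fold changes are deficient minus regular, with 95% intervals from the SE on 7 residual degrees of freedom. CPM uses column totals, and RPKM the union exon length. The common biological coefficient of variation was 12.7%.

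The gene rule, classes, 12 lists and alternatives were chosen with earlier results of these data known. Values per library are given for the catalytic and activator genes and for the genes of largest change in each other class, and at most 4 genes a list were named by smallest adjusted p unless said otherwise. Some genes of the lists are not reported here. The alternatives cover scaling, filters, DESeq2 1.42.0, limma-voom (limma 3.58.1), batch, libraries left out and thinned counts. The addition of pseudogene counts, the activator median without Psme2b and the list counts without deficient libraries 5 to 7 were chosen after seeing the data. Exact permutation used scipy 1.17.1, and figures matplotlib 3.10.9. The fit was tested on simulated counts for deficient against regular (13699 genes). It found 31 of 67 genes at 1.5-fold, 46 of 67 at 2-fold and 61 of 66 at 4-fold; of its 145 calls, 7 were false.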

Additional observations from a re-analysis of the deposited data

How the results depend on the processing

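Over the alternatives, 33 to 38 of the proteasome genes were higher and 4 lower, and the counts over all tested genes stayed within 1.5 times of those reported. Leaving out each library in turn gave 33 to 36 higher and 4 lower proteasome genes, and 3432 to 4107 higher and 3341 to 3989 lower genes over the whole table. In the same runs the log2 difference of the ratio ran from -1.76 to -1.57 for Psmb8/Psmb5, from -0.11 to -0.04 for Psmb9/Psmb6, from 0.69 to 0.83 for Psmb10/Psmb7, from -1.57 to -1.47 for Psme1/Psme3 and from -0.16 to -0.05 for Psme2/Psme3. In batch 1 alone, where 2 regular libraries face 5, exact permutation gave an adjusted p of 0.0794 for Psmb8/Psmb5 (-1.60), Psmb10/Psmb7 (0.60) and Psme1/Psme3 (-1.59). That is the smallest adjusted p that 3 of 5 ratios can reach with the 21 possible assignments of these libraries, each with an exact p of 0.0476 at the least, so the missed threshold says nothing about stability. In batch 2 alone, with 1 regular library and no test, Psmb9/Psmb6 was 0.13 and Psme2/Psme3 0.11, both with the sign turned, and Psmb10/Psmb7 was 1.14. Without deficient libraries 5 to 7, Psmb9/Psmb6 passed (-0.24, exact permutation adjusted p = 0.0476) and Psmb10/Psmb7 did not (0.55, exact permutation adjusted p = 0.0714). The exact permutation p is at least 0.0286 in that design. For Psmb9/Psmb6 the libraries left out were the ones above every regular library, so its p is no separate support. Without those libraries the diets did not overlap in either ratio, so the missed threshold does not mark Psmb10/Psmb7 as the weaker difference. The cause of these changes was not tested. The sign turned in genes that passed under neither setting: Psma8 (-0.071), Psmd11 (-0.15) and Rps27a (-0.052) in batch 2 alone, and Psmd1 (0.019) with no count filter. Leaving out each library gave -0.015 to 0.12 for Psmd11 and -0.035 to 0.058 for Rps27a, both lowest without regular library 2. No filter and column totals moved the median log2 fold change of all genes to 0.19 and 0.10, and Psma3, Psmd12 and Ubb passed under both. No paired analysis was possible because the replicate numbers follow accession order and tie no regular library to a deficient one. Depth limits Psma8 and Psmb11, whose mean levels are below 3 CPM.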

Other observations

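Psmf1, which encodes an inhibitor of the core, begins with none of the symbols of the rule and stands outside the 49 genes. It was at 17.9, 20.7 and 17.6 CPM in the regular libraries and at 19.3 to 24.7 CPM in the deficient ones, so its levels overlapped between the diets in regular library 2 and deficient libraries 1 to 3. It was chosen after its values were seen.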
